A study of Mus musculus with 6 samples.

Results

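The genes described here are 10 heat shock proteins and chaperones, chosen by name as a functional group. They are the HSP70 genes Hspa1a, Hspa1b, Hspa8 and Hspa5, the HSP90 genes Hsp90aa1 and Hsp90ab1, the small heat shock protein gene Hspb1, and the partners Dnajb1, Hsph1 and Hspe1. Together they make 10 of the 39179 genes in the counts, and all 10 were among the 15576 genes that passed the filter on low counts and were tested. RNA was measured in 6 libraries of cortical thymic epithelial cells (cTEC), 3 of Cxcl12DsRed- cTEC and 3 of Cxcl12DsRed+ cTEC, where every experiment, called A, B or C, gave a library of each subset. Both subsets came from untreated Cxcl12::DsRed knockin mice on a C57BL/6 background, 10 weeks of age, in which the red fluorescent protein DsRed reports expression of the chemokine gene Cxcl12. Cells were sorted as CD45- EpCAM1+ UEA1- Ly51+ and divided into DsRed negative and DsRed positive cells, a gate set against leukocytes, which carry CD45, and against medullary cells that bind the lectin UEA1. Transcripts of such cells were still present in the libraries and are given with the other markers. The study describes the replicates as separately sorted, independent and biological, while a figure legend also speaks of a technical triplicate from a single experiment. How many mice were used for a library is stated neither in the labels nor in the methods. The p-values therefore rest on the variation among 6 libraries, which may be partly technical.

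Molecular chaperones bind unfolded or partly folded proteins and use cycles of ATP binding and hydrolysis to let them fold. J-domain proteins such as DNAJB1 hand substrates to HSP70 and stimulate its ATPase, exchange factors such as HSPH1 release the nucleotide, HSP90 acts later on many kinases and receptors, and HSPB1 holds denatured proteins without ATP. Part of the family is made constantly, while other members are switched on by heat shock factors when proteins unfold in the cytosol, or by the unfolded protein response when they unfold in the endoplasmic reticulum (ER). Tissue dissociation and sorting are also known to raise several of these transcripts.

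The promoter sequences are shown because the members fall into classes by these elements. RefSeq windows from 250 bases before to 50 bases after the start (GRCm38.p6) were found for 7 of the 10 genes, and not for Hspa8, Hsp90aa1 or Hsp90ab1. The capitals mark GAANNTTC or TTCNNGAA, a pair of heat shock units, or in Hspa5 the ER stress element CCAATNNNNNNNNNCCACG, each searched on both strands. Hspa1a (chr17:34972157-34972286, minus strand), Hspa1b (chr17:34959239-34959368, minus strand) and Hspb1 (chr5:135887789-135887918, plus strand) are given over the 130 bases before their starts. Hspe1 (chr1:55088053-55088082, plus strand), Hsph1 (chr5:149636351-149636380, minus strand) and Hspa5 (chr2:34772020-34772049, plus strand) are given as 30 bases around the element.
Hspa1a: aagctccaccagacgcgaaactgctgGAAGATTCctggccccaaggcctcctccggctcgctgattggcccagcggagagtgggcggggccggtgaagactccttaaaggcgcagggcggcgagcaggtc
Hspa1b: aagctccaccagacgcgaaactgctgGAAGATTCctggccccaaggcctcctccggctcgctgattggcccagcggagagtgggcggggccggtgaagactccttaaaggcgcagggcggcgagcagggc
Hspb1: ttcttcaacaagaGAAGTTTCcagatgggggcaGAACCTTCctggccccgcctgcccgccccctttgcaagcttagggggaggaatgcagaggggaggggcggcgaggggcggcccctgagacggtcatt
Hspe1: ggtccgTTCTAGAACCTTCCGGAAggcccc
Hsph1: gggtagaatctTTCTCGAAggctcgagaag
Hspa5: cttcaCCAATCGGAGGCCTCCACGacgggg

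The pair of heat shock units was present in the windows of 5 of the 7 matched genes (Hspa1a, Hspa1b, Hspb1, Hsph1 and Hspe1), against 15.06% of the 32851 mouse promoter windows of the same 300 bases. A run of 3 units, GAA and TTC in alternation and each 2 bases apart, which contains the shorter motif, was present in Hspe1 and Hsph1, against 0.603% of windows. In Hsph1 that run lies after the start and outside the printed stretch, which shows the upstream pair alone. The ER stress element was present in Hspa5, against 0.119% of windows. The window of Dnajb1 held none of these letters. In Hspa1a and Hspa1b the match began at the same place, 104 bases before the start, and the 250 bases upstream of the 2 genes differed at 3 positions. These matches are descriptions of sequence and not evidence of binding in these cells.

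None of the 10 genes passed the test between the subsets (edgeR's quasi-likelihood test, Benjamini-Hochberg adjusted p under 0.05). The genes called were 0.449% of all tested genes for higher and 0.173% for lower in Cxcl12DsRed- cTEC. At an unadjusted p under 0.05 there were 2 members, Dnajb1 and Hsph1, both with higher levels in Cxcl12DsRed- cTEC, where 11.8% of all tested genes had such a p. DESeq2 called 1 of the 10 higher, Dnajb1, against 4.68% of the genes to which it gave an adjusted p, and edgeR's likelihood ratio test and limma with voom called 0. The median log2 fold change of Cxcl12DsRed- over Cxcl12DsRed+ cTEC was 0.48 over the 10 members and 0.02 over all genes tested, with 8 of the 10 above 0. The members together took 1.23%, 1.02% and 0.925% of the gene counts in the Cxcl12DsRed- libraries of experiments A, B and C, against 0.810%, 0.757% and 0.976% in the Cxcl12DsRed+ libraries. The shares were higher in Cxcl12DsRed- cTEC in experiments A and B and slightly lower in C, so the subsets overlapped.

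**Figure D1:**
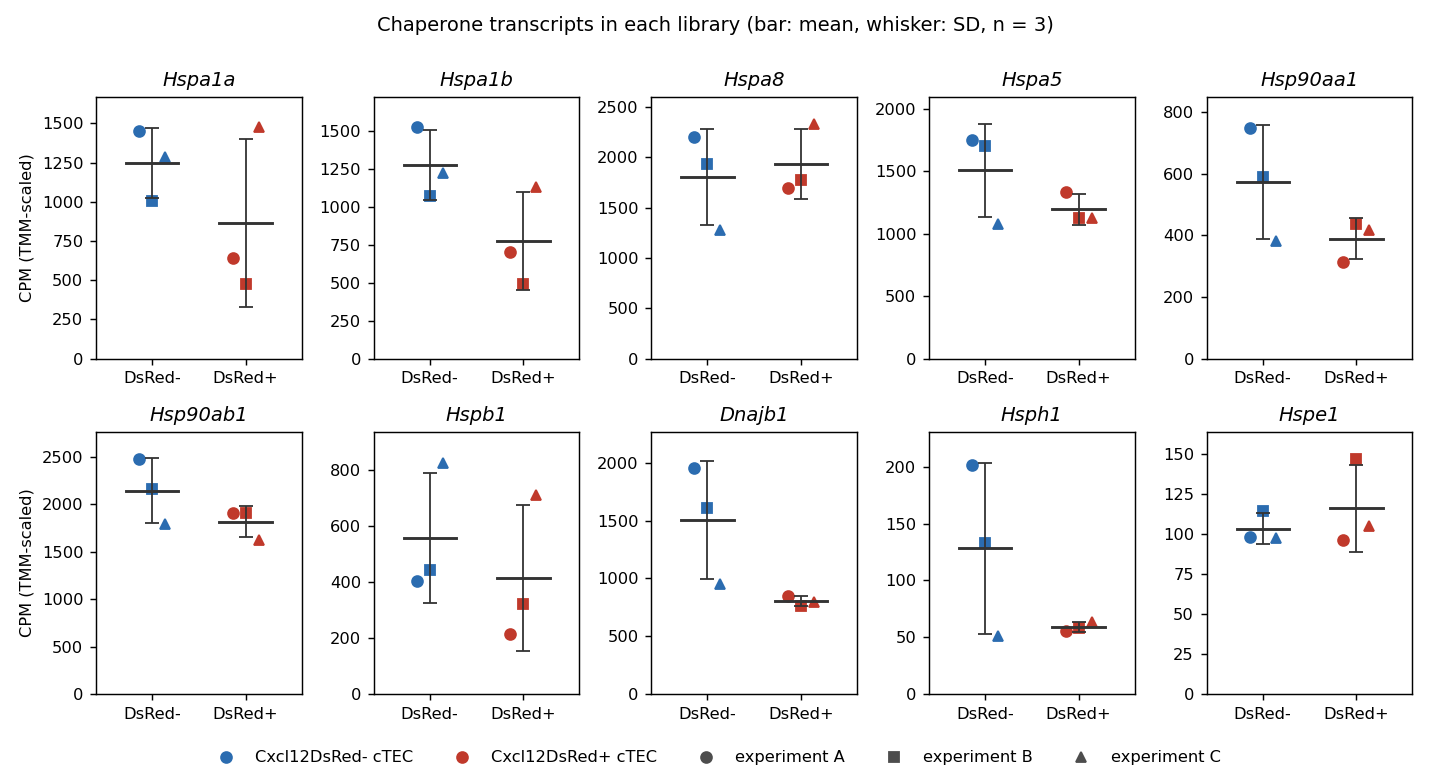
Level (CPM, counts scaled by library size and TMM) of the 10 chaperone genes in each library, on linear axes that start at 0, with Cxcl12DsRed- cTEC left of Cxcl12DsRed+ cTEC. Circles, squares and triangles are experiments A, B and C, the bar is the mean and the whisker the SD of 3 libraries. Dnajb1 is the only panel in which the subsets do not overlap, and in several panels the triangles of experiment C lie apart from the rest.

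Levels are given as CPM, the counts of a gene relative to the library size after TMM scaling, and may be compared between libraries but not between genes of different length. In bulk libraries fewer cells that express a gene and less RNA per cell cannot be told apart. Hspa1a (ENSMUSG00000091971, chr17:34969190-34972156 in GRCm38, minus strand) and Hspa1b (ENSMUSG00000090877, chr17:34956436-34959238, minus strand) encode almost the same stress-inducible cytosolic HSP70. Hspa1a stood at 1449, 1005 and 1287 CPM in the Cxcl12DsRed- libraries of experiments A, B and C, against 641, 473 and 1474 CPM in the Cxcl12DsRed+ libraries. The Cxcl12DsRed+ library of experiment C was the highest of the 6, and the remaining Cxcl12DsRed+ libraries were the lowest. The log2 fold change was 0.53 ± 0.43 (SE), with a 95% interval of −0.48 to 1.54, and did not pass (edgeR adjusted p = 0.748). Single libraries moved it widely, to 1.13 without Cxcl12DsRed+ C (edgeR adjusted p = 0.195), 0.32 without Cxcl12DsRed+ A and 0.24 without Cxcl12DsRed+ B.

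Hspa1b followed Hspa1a, with 1527, 1074 and 1223 CPM in the Cxcl12DsRed- libraries of experiments A, B and C, against 701, 491 and 1129 CPM in the Cxcl12DsRed+ libraries. It was higher in Cxcl12DsRed- cTEC in each experiment, 2.18-fold in both A and B and by less in C, where the CPM ratio of the subsets was close to 1, yet the subsets overlapped because Cxcl12DsRed+ C exceeded Cxcl12DsRed- B. This gave a log2 fold change of 0.72 ± 0.33 (SE), an interval of −0.05 to 1.49 and an edgeR adjusted p of 0.462. The 2 genes share sequence: 60.3% of the 50-base windows of the Hspa1a transcript and 62.3% of those of Hspa1b occur in another gene's transcript, so their individual counts are uncertain, because reads aligned to several places had been set aside. The exons of Hspa1a also overlap those of Gm20481 on the other strand over 564 bases, and Gm20481 had 0 counts in every library.

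Hspa8 (ENSMUSG00000015656, chr9:40800984-40810087, plus strand) encodes the constitutive cytosolic HSP70, which among other tasks uncoats clathrin vesicles and serves chaperone-mediated autophagy. Its CPM was 2199, 1937 and 1281 in the Cxcl12DsRed- libraries of experiments A, B and C, against 1694, 1778 and 2334 in the Cxcl12DsRed+ libraries. The highest and the lowest library were both from experiment C, with the Cxcl12DsRed+ library on top, whereas the order was the opposite in A and B. Over all libraries the log2 fold change was −0.10 ± 0.25 (SE; 95% interval −0.70 to 0.50; edgeR adjusted p = 0.951). The interval leaves room for a level in Cxcl12DsRed- cTEC between 0.614 and 1.42 times that in Cxcl12DsRed+ cTEC. The sign depended on experiment C, since the log2 fold change was 0.09 without its Cxcl12DsRed- library, 0.01 without its Cxcl12DsRed+ library and 0.22 without both. Of the windows of Hspa8, 51.4% occur in the transcripts of 13 other genes, Gm15459 first among them, and its exons hold the small nucleolar RNAs Snord14c, Snord14d and Snord14e on the same strand.

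Hspa5 (ENSMUSG00000026864, chr2:34771970-34777547, plus strand) encodes BiP, the HSP70 of the ER and a regulator of the unfolded protein response. It had 1748, 1702 and 1078.5 CPM in the Cxcl12DsRed- libraries of experiments A, B and C, against 1338, 1126 and 1124 CPM in the Cxcl12DsRed+ libraries. Cxcl12DsRed- C was the lowest of all 6, and Cxcl12DsRed- A and B were the highest. Its log2 fold change was 0.34 ± 0.23 (SE; 95% interval −0.21 to 0.89; edgeR adjusted p = 0.686). It was 0.18 without Cxcl12DsRed- A and 0.52 without Cxcl12DsRed- C. No 50-base window of Hspa5 occurs in another gene.

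Among the partners of cytosolic HSP70, Dnajb1 (ENSMUSG00000005483, chr8:83608193-83612653, plus strand) encodes a stress-inducible J-domain protein of the HSP40 class. It stood at 1956, 1610 and 949 CPM in the Cxcl12DsRed- libraries of experiments A, B and C, against 850.0, 764 and 795 CPM in the Cxcl12DsRed+ libraries. All Cxcl12DsRed- libraries were above all Cxcl12DsRed+ libraries, and the coefficient of variation was 34.01% in Cxcl12DsRed- cTEC and 5.43% in Cxcl12DsRed+ cTEC. The log2 fold change was 0.91 ± 0.28 (SE; 95% interval 0.25 to 1.56), with an unadjusted p of 0.0140 and an edgeR adjusted p of 0.234. Over 17 alternative analyses the adjusted p ran from 0.0436, in DESeq2, to 0.754, and the log2 fold change from 0.64 to 1.15. Dnajb1 was the 1 member of 10 whose libraries did not overlap with higher levels in Cxcl12DsRed- cTEC, against 9.73% of all tested genes, and 0 of 10 did so with lower levels, against 9.32%.

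Hsph1 (ENSMUSG00000029657, chr5:149614287-149636376, minus strand) encodes HSP110, which exchanges the nucleotide of HSP70 and helps it to dissolve aggregates. The gene had 202, 133 and 50.9 CPM in the Cxcl12DsRed- libraries of experiments A, B and C, against 55.2, 58.1 and 63.4 CPM in the Cxcl12DsRed+ libraries. Cxcl12DsRed- A and B were the highest libraries and Cxcl12DsRed- C the lowest, a 3.96-fold range that was the widest of the 10 members. Its log2 fold change was 1.13 ± 0.46 (SE; 95% interval 0.03 to 2.22), with an unadjusted p of 0.0449 and an edgeR adjusted p of 0.408. Without Cxcl12DsRed- A it was 0.60 (adjusted p = 0.721), and without Cxcl12DsRed- C it was 1.502 (adjusted p = 0.0785).

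The HSP90 genes differed in their spread. Hsp90aa1 (ENSMUSG00000021270, chr12:110690605-110702728, minus strand), which encodes the inducible HSP90 alpha, had 749, 589 and 381 CPM in the Cxcl12DsRed- libraries of experiments A, B and C, against 313, 436 and 419 CPM in the Cxcl12DsRed+ libraries. Experiment C again placed Cxcl12DsRed- cTEC below Cxcl12DsRed+ cTEC, so that the subsets overlapped (log2 fold change 0.56 ± 0.28 (SE), interval −0.11 to 1.23, edgeR adjusted p = 0.538). Leaving out Cxcl12DsRed- A brought the log2 fold change of Hsp90aa1 to 0.28. Hsp90ab1 (ENSMUSG00000023944, chr17:45567775-45573271, minus strand), which encodes the constitutive HSP90 beta, had 2484, 2159 and 1794 CPM in the Cxcl12DsRed- libraries and 1907, 1913 and 1628 CPM in the Cxcl12DsRed+ libraries. It was higher in Cxcl12DsRed- cTEC in each experiment by 1.10-fold to 1.30-fold, and the subsets overlapped because Cxcl12DsRed- C lay below Cxcl12DsRed+ A and B. The log2 fold change of 0.24 ± 0.19 (SE) had an interval of −0.21 to 0.69 and an edgeR adjusted p of 0.742, and it was 0.091 without Cxcl12DsRed- A and 0.13 without Cxcl12DsRed+ C. Of the Hsp90aa1 windows 58.5% occur in other transcripts, mainly Gm12346 and Gm5844, against 4.49% of the Hsp90ab1 windows.

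Hspb1 (ENSMUSG00000004951, chr5:135887919-135889563, plus strand) encodes a small heat shock protein that forms large oligomers and binds the cytoskeleton. The libraries of Cxcl12DsRed- cTEC in experiments A, B and C stood at 403, 445 and 825 CPM, against 216, 321 and 711 CPM for those of Cxcl12DsRed+ cTEC. Both libraries of experiment C were above all others, and within each experiment Cxcl12DsRed- cTEC was the higher, by 1.87-fold, 1.39-fold and 1.16-fold in A, B and C. For Hspb1 the log2 fold change was 0.42 ± 0.49 (SE; 95% interval −0.73 to 1.58; edgeR adjusted p = 0.851). Leaving out 1 library gave 0.025 without Cxcl12DsRed- C, 0.082 without Cxcl12DsRed+ A, 0.28 without Cxcl12DsRed+ B and 1.03 without Cxcl12DsRed+ C. Each such step breaks the pair of an experiment. Leaving out both libraries of an experiment gave 0.28 without A, 0.43 without B and 0.63 without C. With the experiment as a block the log2 fold change was 0.53 (edgeR adjusted p = 0.44). Of the 50-base windows of Hspb1, 51.6% are shared with the pseudogene Hsp25-ps1.

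Hspe1 (ENSMUSG00000073676, chr1:55088132-55091307, plus strand) encodes the mitochondrial co-chaperonin that caps the HSPD1 ring. Within Cxcl12DsRed- cTEC it had the lowest coefficient of variation of the members, 9.34%, with 98.2, 115 and 97.6 CPM in experiments A, B and C, against 96.2, 147 and 105 CPM in Cxcl12DsRed+ cTEC. The subsets overlapped, and the Cxcl12DsRed+ library of experiment B was the highest. The log2 fold change was −0.17 ± 0.22 (SE; 95% interval −0.70 to 0.36; edgeR adjusted p = 0.874), which bounds the level in Cxcl12DsRed- cTEC at 0.617 to 1.28 times that in Cxcl12DsRed+ cTEC. Its exons overlap those of Hspd1 on the other strand over 112 bases.

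**Figure D2:**
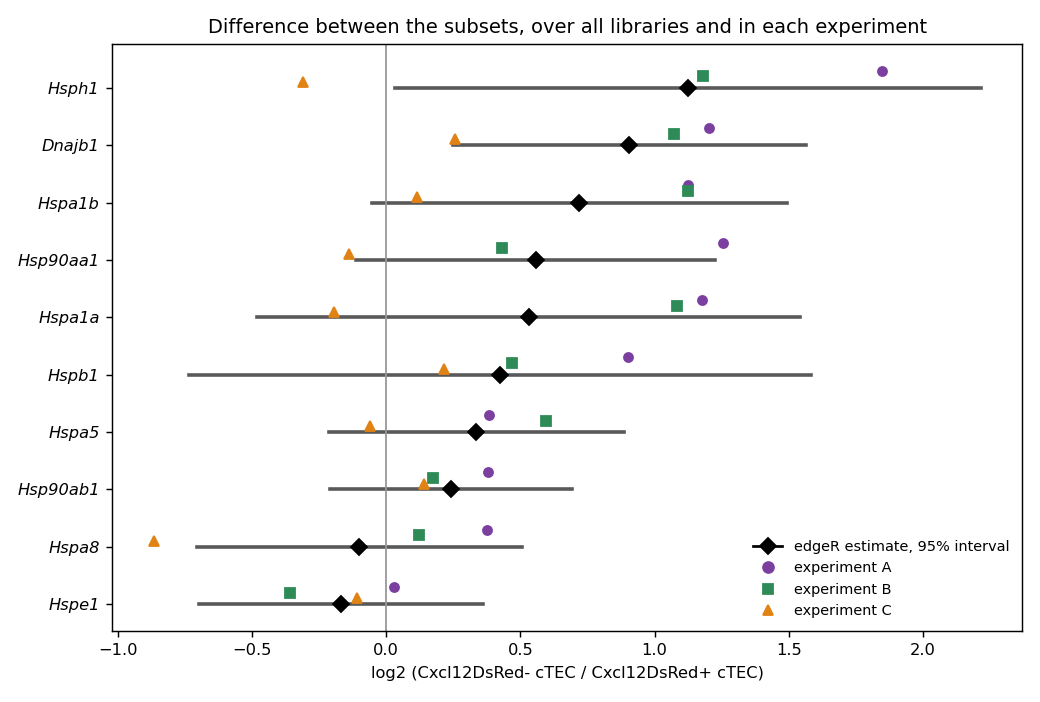
Log2 fold change of Cxcl12DsRed- over Cxcl12DsRed+ cTEC for the 10 genes, ordered by size. Diamonds and lines are the edgeR estimate and its 95% interval over the 6 libraries, and the small symbols above each line are the log2 differences of CPM plus 1 within experiments A, B and C. The symbols of experiment C lie left of those of A for every gene, and the intervals of only Hsph1 and Dnajb1 leave out 0.

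The experiments differed in what the 2 subsets showed. Within experiment A all 10 members were higher in Cxcl12DsRed- cTEC, within B 9 of 10, and within C 4 of 10, where 7784, 7470 and 7945 of the 15576 tested genes were higher. The median log2 difference over the members was 1.01 in A, 0.53 in B and −0.08 in C, against 0.00, −0.03 and 0.02 over all tested genes. At least 2-fold higher levels in Cxcl12DsRed- cTEC were seen for 5 members in A, 4 in B and 0 in C, against 15.5%, 17.9% and 13.7% of all tested genes. The 4 members that were higher in all 3 experiments were Hspa1b, Hsp90ab1, Hspb1 and Dnajb1, against 17.5% of all tested genes, and 0 were lower in all 3, against 17.8%. Hsph1 had the widest gap between experiments, with Cxcl12DsRed- over Cxcl12DsRed+ ratios of 3.65 in A, 2.29 in B and 0.803 in C. Each experiment gave 1 library per subset, so these differences between experiments have no replicate of their own.

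The levels themselves were next compared between experiments after removal of the subset difference. The joint test of the experiment terms (edgeR's quasi-likelihood test with 2 residual degrees of freedom) called 0% of genes and 0 of the members, and 3.77% of genes and 1 member, Hspb1, had an unadjusted p under 0.05. Hspb1 was higher in C than in A by 1.37 and than in B by 1.03 on the log2 scale, with an unadjusted p of 0.00638 and an edgeR adjusted p of 0.992. The likelihood ratio test, which called 1.34% of genes, gave Hspb1 an edgeR adjusted p of 0.0481. Hspa1a and Hspa1b had their highest mean in C as well, at 1380.3 and 1176 CPM, whereas Hsph1, Dnajb1, Hspa8, Hspa5, Hsp90aa1 and Hsp90ab1 had their lowest mean there. None of those 8 had an unadjusted p under 0.05. The ratio of Dnajb1 to Hspb1 counts, chosen after the values were seen, was 4.85, 3.62 and 1.15 in the Cxcl12DsRed- libraries of A, B and C, against 3.94, 2.38 and 1.12 in the Cxcl12DsRed+ libraries.

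Ratios of 2 genes within a library do not depend on the scaling between libraries. For every count of the constitutive Hspa8, the inducible pair Hspa1a and Hspa1b together had 1.35, 1.07 and 1.96 counts in the Cxcl12DsRed- libraries of experiments A, B and C, against 0.792, 0.543 and 1.12 in the Cxcl12DsRed+ libraries. The ratio was higher in Cxcl12DsRed- cTEC in 3 of 3 experiments, by 0.77, 0.98 and 0.81 on the log2 scale, but the genes behind it differed. In C the log2 difference was −0.87 for Hspa8, −0.20 for Hspa1a and 0.12 for Hspa1b, so there the ratio was higher with a lower Hspa8, whereas in A and B Hspa8 differed by 0.38 and 0.12 and the inducible pair was higher. The mean log2 ratio was 0.50 ± 0.44 (SD) in Cxcl12DsRed- cTEC and −0.35 ± 0.52 in Cxcl12DsRed+ cTEC, a difference of 0.86. The two-sided exact permutation test over the 6 libraries gave p = 0.2, where the smallest possible is 0.1, and within the 3 pairs it gave p = 0.25, the smallest possible. Adjusted over the 4 ratios tested, the exact p over the libraries was 0.4. The design of 3 libraries against 3 cannot reach 0.05 in such a test.

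The remaining ratios differed less. Hsp90aa1 over Hsp90ab1 was 0.302, 0.273 and 0.212 in the Cxcl12DsRed- libraries of experiments A, B and C, against 0.164, 0.228 and 0.257 in the Cxcl12DsRed+ libraries, with opposite directions in A and C (log2 difference 0.29, exact permutation p = 0.4). That difference was 0.098 without Cxcl12DsRed+ A, 0.18 without Cxcl12DsRed- A and 0.43 without Cxcl12DsRed- C. Hspe1 over its ring partner Hspd1 differed by 0.14 on the log2 scale (exact permutation p = 0.7). Hspa5 over Hsp90b1, the HSP90 of the ER, was 1.75, 2.24 and 1.97 in Cxcl12DsRed- cTEC, against 2.18, 2.30 and 2.81 in Cxcl12DsRed+ cTEC. This ratio was lower in Cxcl12DsRed- cTEC in 3 of 3 experiments (log2 difference −0.29, exact permutation p = 0.2 over the libraries and 0.25 within the pairs), and it was −0.18 without Cxcl12DsRed+ C. Hspa1a over Hspa1b, a ratio added after the values were seen, was 0.949, 0.936 and 1.05 in Cxcl12DsRed- cTEC and 0.915, 0.963 and 1.31 in Cxcl12DsRed+ cTEC, so the Cxcl12DsRed+ library of experiment C stood apart from the other 5.

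**Figure D3:**
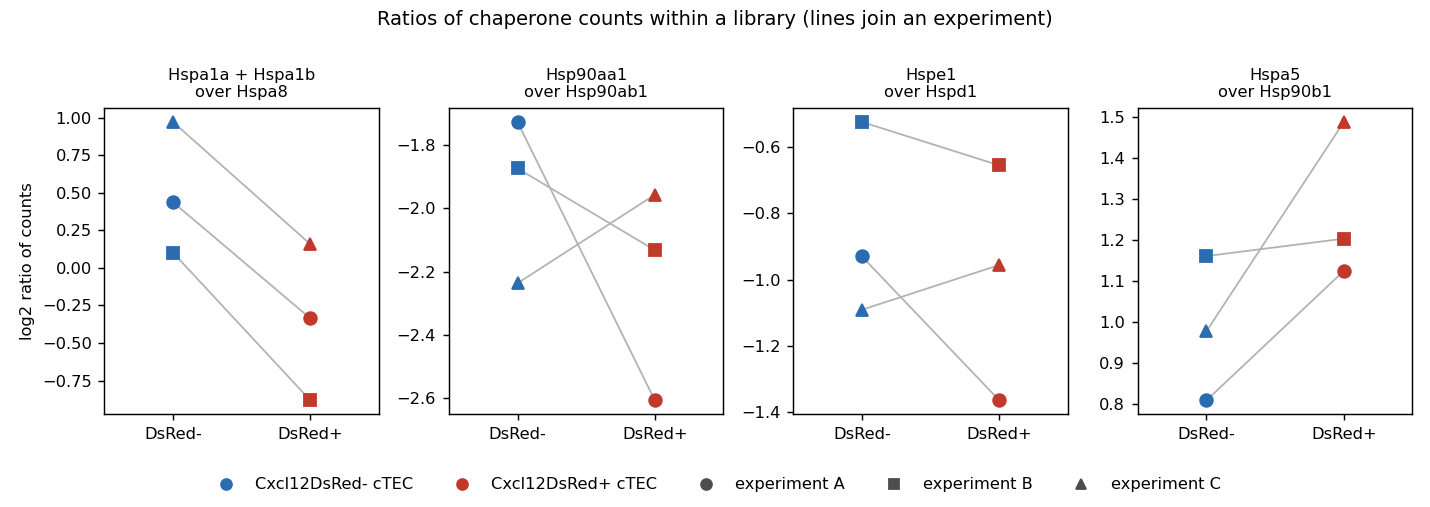
Log2 ratio of counts within each library for 4 pairs of chaperones, Cxcl12DsRed- cTEC left and Cxcl12DsRed+ cTEC right, with a line joining the libraries of 1 experiment and a separate scale for each panel. The lines of the first panel fall from left to right by 0.77, 0.98 and 0.81 in experiments A, B and C, and those of the last panel climb in all 3.

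Per kilobase of exon, taken as the union of all annotated exons, the members ranged widely. That length exceeds the longest transcript for several members, with 4301 against 3158 bases for Hspa8 and 1031 against 930 for Hspb1. The order and ranks hold for this length only. Hsp90ab1 had the highest mean level, 715 CPM per kb in Cxcl12DsRed- cTEC against 606 CPM per kb in Cxcl12DsRed+ cTEC, which placed it at rank 66 of the 15576 tested genes. Hspb1 followed at 541 CPM per kb in Cxcl12DsRed- cTEC and 403 CPM per kb in Cxcl12DsRed+ cTEC, and Hspa8, Hspa1b, Dnajb1, Hspa1a and Hspa5 lay at 357 to 470 CPM per kb in Cxcl12DsRed- cTEC and 251 to 450 CPM per kb in Cxcl12DsRed+ cTEC. Hsp90aa1 stood at 146 CPM per kb in Cxcl12DsRed- cTEC and 99.1 CPM per kb in Cxcl12DsRed+ cTEC, and Hspe1 at 70.2 CPM per kb in Cxcl12DsRed- cTEC and 78.9 CPM per kb in Cxcl12DsRed+ cTEC. Hsph1 was lowest, at 17.7 CPM per kb in Cxcl12DsRed- cTEC and 8.11 CPM per kb in Cxcl12DsRed+ cTEC, rank 3726. Neighbours in this order overlapped in their ranges over the 6 libraries, except that Hsp90aa1 lay below Hspa5 and Hsph1 below Hspe1 in every library. For the members that share sequence with other genes these levels count only reads placed at 1 gene.

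A wider set of 92 genes from lists of chaperones and their regulators was examined beside the 10. Of these 92, 91 were in the counts and 88 were tested. None passed in either direction (edgeR's quasi-likelihood test), 2 had an unadjusted p under 0.05 (11.8% of all tested genes), the likelihood ratio test called 1 (5.65% of all tested genes) and DESeq2 called 2 (7.19% of the genes to which it gave an adjusted p). The median log2 fold change was 0.03, with 46 of 88 above 0, and within experiment A, where all 10 members were higher in Cxcl12DsRed- cTEC, 43 of the 88 were. Herpud1, an ER membrane protein of the degradation pathway that the unfolded protein response switches on, had 358, 297 and 236 CPM in the Cxcl12DsRed- libraries of experiments A, B and C, against 153, 133 and 150 CPM in the Cxcl12DsRed+ libraries. The subsets did not overlap (log2 fold change 1.03 ± 0.21 (SE), edgeR adjusted p = 0.0896), and the adjusted p ran from 0.000701 in DESeq2 to 0.469 over the alternatives. Serpinh1, the collagen chaperone HSP47, had 151, 142 and 160 CPM in Cxcl12DsRed- cTEC, against 249.3, 209 and 291 CPM in Cxcl12DsRed+ cTEC. It did not overlap either (log2 fold change −0.72 ± 0.19 (SE), edgeR adjusted p = 0.153, DESeq2 adjusted p = 0.0256). Of the 88 tested, 4 did not overlap with higher levels in Cxcl12DsRed- cTEC, against 9.73% of all tested genes. With lower levels there were 9 of 88, against 9.32%.

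Of the 23 ER genes, all tested, 20 had a log2 fold change above 0, with a median of 0.19, and 12 were highest in the Cxcl12DsRed- library of experiment A. Over all tested genes 7989 of 15576 were above 0 and 3294 were highest in that library. Hsp90b1 had a log2 fold change of 0.62 ± 0.28 (SE; edgeR adjusted p = 0.451). Of the 13 genes of the chaperonin TRiC and its feeder prefoldin, which fold actin and tubulin, 11 were below 0, with a median of −0.10 and narrow limits of −0.27 to 0.15. Cct7, Cct8 and Cct3 had the smallest p there, with log2 fold changes of −0.27, −0.19 and −0.20 and edgeR adjusted p of 0.612 to 0.756. No member of either list passed, and no test of a list was made.

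The factors that switch on the heat shock genes gave no call: Hsf1, the main one, had a log2 fold change of 0.12 ± 0.22 (SE), and Hsf2 and Hsf4 were at low levels, with 0.88 ± 1.06 and −1.83 ± 1.58 (SE). Among 19 tested HSP70 partners the median was −0.12, and Hspa4l, Hspa13 and Bag3 came first by p, with log2 fold changes of 1.05, −0.89 and −0.50 and edgeR adjusted p of 0.469, 0.592 and 0.613. Bag3, a stress-inducible partner, stood at 95.1, 88.0 and 110.0 CPM in the Cxcl12DsRed- libraries of experiments A, B and C, against 103, 112 and 200.2 CPM in the Cxcl12DsRed+ libraries. The 13 HSP90 co-chaperones had a median of −0.08, with Fkbp5 at −1.16, Ptges3 at −0.51 and Unc45a at 0.53. The list of small heat shock proteins and crystallin, with 5 tested genes, had a median of 0.01. Cryab was at 0.42, Hspb6 at −0.66 and Hspb11 at 0.67. Hspb11 was listed by its symbol only and need not act as a chaperone. The 12 mitochondrial chaperones and proteases had a median of 0.00, with Grpel2 at 0.74, Clpb at −0.63 and Hspd1 at −0.29.

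**Figure D4:**
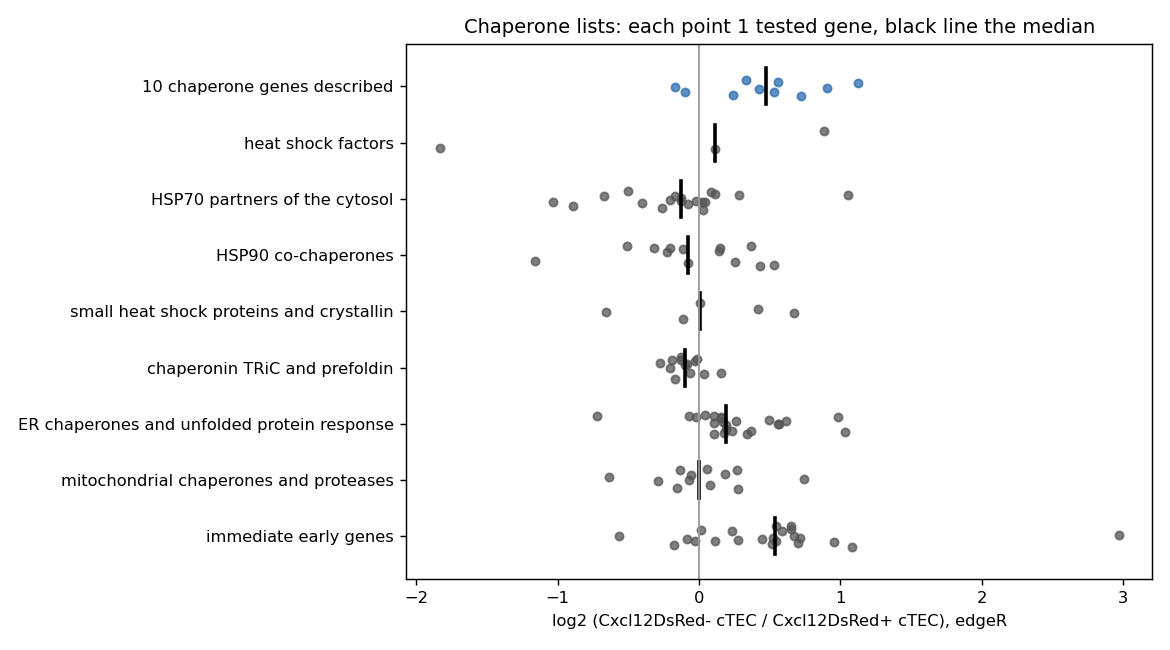
Log2 fold change of Cxcl12DsRed- over Cxcl12DsRed+ cTEC (edgeR) for each tested gene of the chaperone lists and of the immediate early genes, with 1 point a gene and the median as a black line. The medians are 0.48 for the 10 genes described, 0.19 for the ER genes, −0.10 for the chaperonin genes and 0.54 for the immediate early genes.

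Other groups of transcripts were set beside the members. The 22 immediate early genes, fast responders such as Fos and Jun, had a median log2 fold change of 0.54 and summed to 28125, 26330 and 23222 CPM in the Cxcl12DsRed- libraries of experiments A, B and C, against 16051, 14889 and 22659 CPM in the Cxcl12DsRed+ libraries. These sums did not overlap between the subsets. No gene of this list passed and 7 had an unadjusted p under 0.05, against 11.8% of all tested genes (edgeR's quasi-likelihood test). Jun, Atf3 and Btg2 had the smallest p, with log2 fold changes of 0.65, 1.09 and 0.71 and edgeR adjusted p of 0.211, 0.212 and 0.271. Like Hspa1a and Hspa1b, the sum was highest in experiment C among the Cxcl12DsRed+ libraries. The 13 mitochondrial mRNAs, 12 of them tested, summed to 14195, 31615 and 9714 CPM in Cxcl12DsRed- cTEC and 9708, 16709 and 8046 CPM in Cxcl12DsRed+ cTEC, and none passed. Their sum was highest in experiment B in each subset, unlike the sum of the members.

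Markers of other cells also differed between the libraries. The 12 tuft cell markers, of which Il25 was at 0 in all Cxcl12DsRed+ libraries, summed to 2928.5, 771 and 509 CPM in the Cxcl12DsRed- libraries of experiments A, B and C, against 43.1, 38.7 and 34.8 CPM in the Cxcl12DsRed+ libraries. All 11 tested were above 0 and 3 passed (Trpm5, Chat and Alox5ap). Within Cxcl12DsRed- cTEC the tuft sums fell from A to B to C. The sum of the 10 members had that order too, at 12816, 10767 and 8966 CPM. So did the sums of the endothelial, B cell, ER and immediate early lists, among others. The sums of the HSP90 co-chaperone, small heat shock protein, chaperonin, mitochondrial, medullary, fibroblast, myeloid and red cell lists did not. The 12 endothelial markers summed to 117, 78.2 and 65.7 CPM in Cxcl12DsRed- cTEC, against 834, 805 and 6163 CPM in Cxcl12DsRed+ cTEC. Of these markers Emcn, 1 of the 12, passed with lower levels in Cxcl12DsRed- cTEC. The 15 cTEC and TEC markers summed to 8295 to 11789 CPM in Cxcl12DsRed- cTEC and 15809 to 29725 CPM in Cxcl12DsRed+ cTEC, and Prss16, Cxcl12 and Psmb11 fell in Cxcl12DsRed- cTEC. Cxcl12 is among the 15, and the sort on its reporter set its direction in advance. The 9 myeloid markers, mostly Lyz2, summed to 518, 852 and 138 CPM in Cxcl12DsRed- cTEC, against 24.4, 52.4 and 82.6 CPM in Cxcl12DsRed+ cTEC, with the smallest gap in experiment C, and none of the 5 tested passed. The 5 B cell markers summed to 37.0, 33.3 and 6.91 CPM in Cxcl12DsRed- cTEC and 0.718, 5.05 and 2.83 CPM in Cxcl12DsRed+ cTEC, nearly all of it Cd79b in Cxcl12DsRed- cTEC, and Pax5 was at 0 in every library. The 12 fibroblast and pericyte markers, mostly Dcn, summed to 4312, 4112 and 5146 CPM in Cxcl12DsRed- cTEC, against 2195, 2307 and 2131 CPM in Cxcl12DsRed+ cTEC, and none passed. Sums overlapped between the subsets for the 7 medullary markers, mostly Ccl21a, with 3683 to 6600 CPM in Cxcl12DsRed- cTEC and 2122 to 9361 CPM in Cxcl12DsRed+ cTEC, for the 12 thymocyte markers, with 57.6 to 106 CPM and 43.1 to 360.1 CPM in the same subsets, and for the 6 red cell genes, which were highest in experiment C in both subsets, at 1932 CPM in Cxcl12DsRed- cTEC and 3364 CPM in Cxcl12DsRed+ cTEC. The part of these transcripts in the chaperone values was not tested. The sort itself could be checked on the DsRed transcript, which had 580 to 1129 counts in Cxcl12DsRed- libraries and 45495 to 79903 counts in Cxcl12DsRed+ libraries, among 34574900 to 51042679 counts in genes per library.

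The genes outside these lists with the pattern most like the mean of Hspa1a, Hspa1b, Dnajb1 and Hsph1 included Gusb, Tppp3, Stam and Tspan6, with Pearson correlations of 0.989 to 0.996 over the 6 libraries. These are descriptions without a test, and 52 of the 9330 genes compared had a correlation above 0.95. Gusb, which encodes a lysosomal glucuronidase, had 196 CPM in the Cxcl12DsRed- library of experiment A, 124 in B and 94.7 in C, against 61.5, 41.2 and 94.6 CPM in the Cxcl12DsRed+ libraries. As for Hspa1b, the Cxcl12DsRed+ library of experiment C was well above those of A and B. Since these genes were picked for their likeness to members with higher levels in Cxcl12DsRed- cTEC, no test between the subsets is given for them.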

How the data were processed

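Libraries came from poly(A) RNA by the SMARTer low input method, and per the submitters' processing notes the reads were handled with Trimmomatic 0.36, STAR 2.7.3a and HTSeq on mm10. The authors deposited whole-number counts per gene and library, with no normalization, taken in HTSeq's intersection-nonempty mode. Of the annotation release and strand setting, neither was given in the sources used here. The 92 spike-in rows, all at 0, the DsRed row and 5 HTSeq summary rows (no gene, 5.87% to 9.35% relative to the counts in genes, ambiguous 1.21% to 1.38%, several places 5.61% to 9.07%) stayed out of library sizes and tests. Symbols were matched for 37607 of 39179 gene IDs through a GENCODE annotation of GRCm38, and Hspa14 was not analysed here.

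Counts were fitted with edgeR 4.0.16 in R 4.3.3 (filterByExpr with a minimum count of 10, TMM, prior count 0.125, glmQLFit and glmQLFTest, subset as the only term), with Benjamini-Hochberg adjustment over 15576 genes at 0.05. The SE is the log2 fold change divided by the root of F, and the 95% interval uses the total degrees of freedom of the fit. Alternatives were the likelihood ratio test, DESeq2 1.42.0 (adjusted p not available for some genes and left so), limma 3.58.1 with voom, RLE factors, library totals, a mean CPM of 1 or no filter in place of filterByExpr, the experiment as a block, and leaving out each library or experiment. Depth was 34574900 to 51042679 counts in genes. Ratios used exact permutation tests.

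Experiment letters in the labels pair a library of each subset. They were not in the main model because the study names no block. Deviations from the subset means correlated at 0.0351, 0.0904 and 0.0778 within experiments A, B and C and at −0.112 to 0.00750 between them.

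All 10 members were named, and of each other list the genes that passed or else the 3 with the smallest p, and the 5 genes of like pattern, 1 of which is not reported here. Bag3, Hsp90b1, Hsf1 and Hspd1 fall under this rule or a ratio. The members and lists were chosen with earlier results of these data known. The fit was tested on simulated data.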

Additional observations from a re-analysis of the deposited data

How the results depend on the processing

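The count of 97 genes called over all genes was 880 with the likelihood ratio test, 1081 with DESeq2, 4 with limma and voom, 168 without a filter, and 0 to 139 when a library or an experiment was left out (0 without Cxcl12DsRed- A, Cxcl12DsRed- B, Cxcl12DsRed+ A or Cxcl12DsRed+ B, 1 without Cxcl12DsRed+ C), so the marker calls named above rest on those libraries too. For the 10 members the count was 0 in 16 of 17 alternatives and 1 in DESeq2 (Dnajb1). For the wider chaperones it was 1 with the likelihood ratio test and 2 with DESeq2. Between experiments the likelihood ratio test called 208 genes and 1 member. With the experiment as a replicate block, 73 genes and 0 members were called, so the pairing changed no call of a member. The log2 fold change of Hspa8 turned from −0.10 to values between −0.39 and 0.22 when libraries were left out (0.09, 0.01 and 0.22 without the Cxcl12DsRed-, the Cxcl12DsRed+ or both libraries of experiment C), and that of Hspe1 to −0.33 to 0.035, positive without Cxcl12DsRed+ B. The log2 difference of Hspe1 over Hspd1 ran from −0.043 to 0.31 (−0.019 without Cxcl12DsRed- B and −0.043 without Cxcl12DsRed+ A). The causes were not tested. For the inducible over constitutive HSP70 ratio, the log2 difference between the subsets stayed at 0.59 to 1.11 when 1 library was left out. Whether depth limited the calls was not tested.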
